A study of Mus musculus with 6 samples.

Results

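The collagen genes of the mouse lung were taken as every gene symbol of the array made of Col, a number, the letter a and a further number, together with 9 genes whose products fold, modify, cleave or bind collagen (Serpinh1, Plod1, Plod2, Plod3, Pcolce, Lum, Dcn, Bgn and Fmod). The rule used names and no measured value, although it was chosen with earlier results of these data known. It gave 45 genes of 18138 gene symbols on the array, 36 of them collagen chains, with 69 of 25697 probes.

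Collagens are trimers of chains that are synthesised in the endoplasmic reticulum, where prolines and lysines are hydroxylated and the chaperone HSP47, the product of Serpinh1, holds the triple helix. Fibrillar procollagens are secreted, trimmed at their ends and assembled into fibrils whose diameter is set partly by small leucine-rich proteoglycans. In the lung, fibrillar collagens give airways, vessels and septa their tensile strength, whereas collagen IV forms the network of the basement membranes. The alveolar basement membrane holds the α3α4α5 chains of collagen IV beside the ubiquitous α1α1α2 form.

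At postnatal day 6, the lungs of 3 hSRY-ON and 3 hSRY-OFF male mice (strain FVB in the labels, FVB/N in the methods) were compared, each hybridised as biotinylated cRNA to 1 Illumina MouseRef-8 array. In hSRY-ON mice the human SRY transgene was recombined by Cre that came with the egg of a Cre-carrying mother, and the ubiquitous CAG promoter then drove it. Those mice did not inherit the Cre gene. The study uses hSRY-OFF for the unrecombined transgene but also has controls with no transgene, so that the state of these mice rests on the label. All transgenic mice came from 1 line with a single integration, and no probe of the array reads human SRY.

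Precision is limited by having 3 arrays per group. The labels number the replicates, which the study describes as biological triplicates, and p-values measure the spread between them. Levels are normalized log2 intensities, where a step of 1 is a doubling, and the values of single arrays are given in the order of replicates 1 to 3. Between 13191 and 14134 probes were detected per array (detection p under 0.05). A probe was tested where it was detected on at least 3 of the 6 arrays, which kept 13841 probes. The hSRY-ON arrays varied more than the hSRY-OFF arrays, with the larger SD in hSRY-ON for 73.6% of the tested probes and 76.5% of those of the collagen genes. The lung label was borne out by the epithelial markers Sftpc, Sftpb, Sftpa1, Nkx2-1, Scgb1a1 and Ager, which were detected on all arrays.

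Promoter windows in RefSeq (build GRCm38.p6, 250 bases before to 50 after the transcription start) were matched for 35 of the 45 genes, as 38 windows. Those of Col4a4, Col17a1, Col24a1 and Serpinh1 are shown because these genes had large changes within their classes. That of Col3a1 is shown because it was the only window of the collagen genes with the SRY/SOX core AACAAT. Each reads 5′ to 3′ in the direction of transcription, with capitals marking matches on either strand to AACAAT, to the TATA letters TATAAA, to the CCAAT box or to the GC box GGGCGG.
Col4a4, chr1:82586800-82587099, minus strand: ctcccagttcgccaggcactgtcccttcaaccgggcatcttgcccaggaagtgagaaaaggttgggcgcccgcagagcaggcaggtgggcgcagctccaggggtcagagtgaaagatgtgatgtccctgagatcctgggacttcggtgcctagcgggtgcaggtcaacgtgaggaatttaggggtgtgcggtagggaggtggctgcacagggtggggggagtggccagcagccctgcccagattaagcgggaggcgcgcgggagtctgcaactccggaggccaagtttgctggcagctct
Col17a1, chr19:47691993-47692292, minus strand: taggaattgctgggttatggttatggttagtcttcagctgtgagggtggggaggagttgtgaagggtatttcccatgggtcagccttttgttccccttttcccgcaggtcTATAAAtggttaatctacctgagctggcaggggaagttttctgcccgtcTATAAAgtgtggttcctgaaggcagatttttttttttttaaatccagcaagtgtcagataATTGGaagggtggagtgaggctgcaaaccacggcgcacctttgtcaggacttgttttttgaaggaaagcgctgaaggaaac
Col24a1, chr3:145292222-145292521, plus strand: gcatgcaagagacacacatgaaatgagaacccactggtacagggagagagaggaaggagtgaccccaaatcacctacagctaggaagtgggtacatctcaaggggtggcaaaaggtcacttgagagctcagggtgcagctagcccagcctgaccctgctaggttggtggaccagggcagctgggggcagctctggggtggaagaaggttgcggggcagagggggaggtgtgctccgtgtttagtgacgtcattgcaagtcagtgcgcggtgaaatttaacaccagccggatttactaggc
Serpinh1, chr7:99353190-99353489, minus strand: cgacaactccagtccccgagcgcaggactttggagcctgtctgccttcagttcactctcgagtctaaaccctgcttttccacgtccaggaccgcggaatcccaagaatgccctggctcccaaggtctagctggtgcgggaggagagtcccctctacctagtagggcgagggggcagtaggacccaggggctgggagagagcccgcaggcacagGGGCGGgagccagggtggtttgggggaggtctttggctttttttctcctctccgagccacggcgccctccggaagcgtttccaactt
Col3a1, chr1:45311288-45311587, plus strand: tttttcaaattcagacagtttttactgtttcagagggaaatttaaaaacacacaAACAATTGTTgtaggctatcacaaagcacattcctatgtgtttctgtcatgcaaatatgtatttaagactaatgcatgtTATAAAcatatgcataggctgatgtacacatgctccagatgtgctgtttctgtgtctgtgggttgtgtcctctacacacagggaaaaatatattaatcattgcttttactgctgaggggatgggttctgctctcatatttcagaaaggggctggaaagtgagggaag
In the Col3a1 window a pair of overlapping AACAAT matches, on opposite strands, starts 196 and 192 bases before the transcription start. AACAAT was present in 10.7% of all 32851 windows of this length and in 2.63% of those of the collagen genes. The GC box was present in 60.5% of the collagen gene windows and in 35.7% of all windows, and the median GC content was 59.8% against 52.7%. The TATA letters stood in 15.8% and 13.6% of these windows, and the CCAAT box in 36.8% and 37.4%. A match of letters is a description and not a binding site. Entries for Col12a1, Col14a1, Col1a1, Col2a1, Col4a3, Col5a2, Col9a3, Dcn, Lum and Plod2 were missing.

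Several fibrillar and fibril-associated collagen transcripts and the collagen chaperone Serpinh1 were lower in hSRY-ON lungs, while the basement membrane chains Col4a3 and Col4a4, Col17a1, Plod1 and 1 of the probes of decorin (Dcn) were higher. Of the 69 probes, 51 (38 genes) were tested. Among these, 6 probes (5 genes) were higher and 11 probes (9 genes) were lower in hSRY-ON at an adjusted p under 0.05 (limma, Benjamini-Hochberg over all tested probes). That is 33.3% of the tested probes of the collagen genes, beside 26.9% of all tested probes (13.6% higher and 13.3% lower). The median log2 change was -0.10, beside -0.03 over all tested probes. Groups did not overlap for 29 of the 51 probes, 11 higher and 18 lower in hSRY-ON, beside 46.6% of all tested probes (22.4% higher and 24.1% lower). In whole lung, fewer cells of a type and less RNA per cell cannot be told apart.

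**Figure D1:**
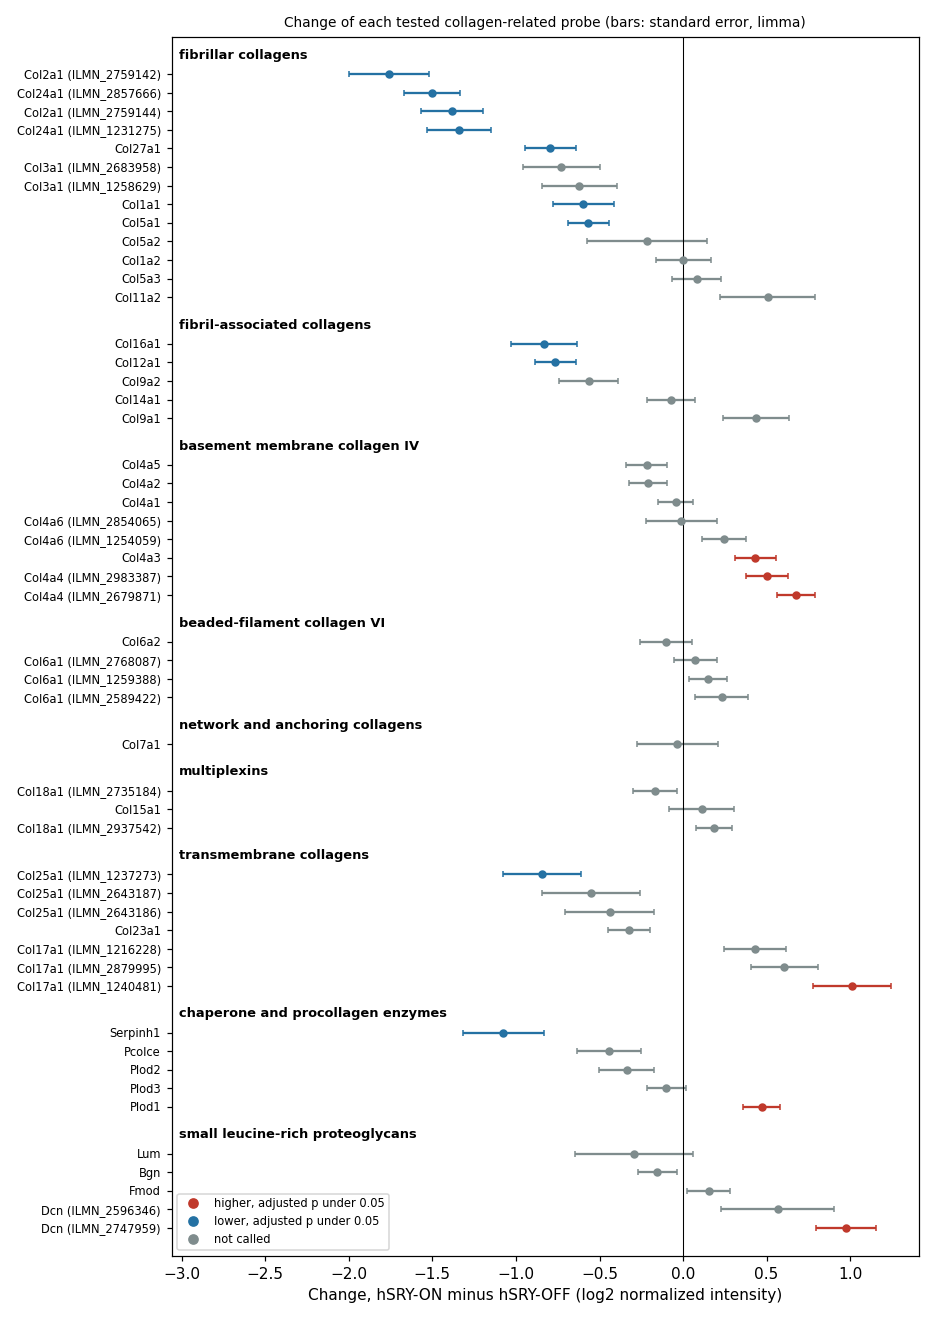
Change of each of the 51 tested probes of the collagen genes by class, as hSRY-ON minus hSRY-OFF on the log2 scale of normalized intensity (x axis). Points are limma estimates from 3 against 3 arrays, bars are standard errors, and colours give the call at an adjusted p under 0.05. The 7 called fibrillar probes lie left of 0, from -1.76 to -0.57, and the 3 called collagen IV probes lie right of 0, from 0.43 to 0.68.

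Another 16 probes were not detected on any array. They included every probe of Col8a2, Col9a3, Col10a1, Col11a1, Col13a1, Col19a1 and Col28a1, which are network, fibril-associated, fibrillar, transmembrane and other collagens, several of them known from cartilage. Single probes of Col4a6, Col7a1, Col18a1, Col24a1 and Col25a1 and both remaining probes of Col9a1 were also undetected. A probe of Fmod was detected on 1 hSRY-OFF array and a further probe of Col25a1 on 1 hSRY-ON array, and neither was tested.

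Among the 11 fibrillar collagen genes, 13 of 17 probes were tested, of which 7 (5 genes) were lower and 0 were higher, with a median change of -0.62. Of all tested probes, 13.3% were lower and 13.6% were higher. The lower probes included those of Col2a1 and Col24a1, which passed the detection filter through their hSRY-OFF signal alone. Col2a1 encodes the chain of collagen II, best known from cartilage and other embryonic tissues. Its probe ILMN_2759142 read 6.73, 6.73 and 7.07 in hSRY-OFF and 4.64, 5.56 and 5.05 in hSRY-ON lungs. Its probe ILMN_2759144 read 6.35, 6.56 and 6.68 against 4.83, 5.14 and 5.47. All hSRY-ON values lay below all hSRY-OFF values in both. The changes were -1.76 (SE 0.24, limma, adjusted p = 0.00370) and -1.38 (SE 0.19, adjusted p = 0.00365).

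Col24a1, a fibrillar collagen associated with developing bone and cornea, showed the same order of groups. ILMN_2857666 read 6.33, 6.27 and 6.34 in hSRY-OFF lungs, and in hSRY-ON lungs it was not detected on any array (4.57, 4.71 and 5.16). The limma estimate was -1.50 (SE 0.17, adjusted p = 0.00205). Under the chosen processing the fall was at least 1.88-fold, a bound that was not itself tested and does not carry over to other background corrections. For this bound the hSRY-OFF mean was set against a hSRY-ON mean in which no array counts below its dimmest detected probe. ILMN_1231275 read 6.66, 6.57 and 6.51 against 5.13, 4.94 and 5.64, a change of -1.34 (SE 0.19, adjusted p = 0.00421). The Col2a1 and Col24a1 probes were detected on all hSRY-OFF arrays but on 1 or 0 hSRY-ON arrays, so that their hSRY-OFF signal alone carried them past the detection filter. All 4 probes were called in every alternative in which they were tested, including the one with no filter. Their signals were dim, and without background correction the changes were -0.55 and -0.40 for Col2a1 and -0.43 and -0.39 for Col24a1. Those of the brighter Col1a1 and Col5a1 were then -0.58 and -0.55, so that the order of sizes among fibrillar genes depended on this correction.

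Because Col2a1 is a cartilage gene, 7 cartilage markers were examined beside it. Of the 6 on the array, Matn1, Matn3, Lect1 and Hapln1 were undetected on every array, Comp was detected on 1 hSRY-OFF array and Acan on 1 hSRY-ON array. None was tested. Their summed linear level, 157 to 166 in hSRY-OFF and 171 to 205 in hSRY-ON lungs, is signal at the level of background and gives no order of the groups.

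Col1a1, the main chain of collagen I, was among the brightest probes. It read 13.00, 13.07 and 12.63 in hSRY-OFF and 12.20, 12.12 and 12.59 in hSRY-ON lungs, a change of -0.60 (SE 0.18, limma, adjusted p = 0.0494). The groups did not overlap, but hSRY-ON replicate 3 lay close to the lowest hSRY-OFF array. The call stood at the edge of the threshold and was lost without hSRY-OFF replicate 1 or 2 or hSRY-ON replicate 1 or 2. It was also lost with no filter, with 1 scaling factor per array and with the replicate number added to the model as a block. Col1a2, the partner chain of collagen I, was not called, and its only probe was dim beside that of Col1a1. It read 6.72, 6.78 and 6.78 against 6.64, 6.54 and 7.09, with a change of 0.0007 (SE 0.16, adjusted p = 0.998). A probe this dim does not show that the Col1a2 transcript was unchanged.

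Col5a1, which encodes a chain of collagen V that starts collagen I fibrils, was lower. It read 12.29, 12.42 and 12.25 against 11.75, 11.62 and 11.89, a change of -0.57 (SE 0.12, limma, adjusted p = 0.0166). The call was lost without hSRY-OFF replicate 1 or 2 and with the replicate block. Col27a1, a fibrillar chain of cartilage and developing tissues, read 7.98, 8.03 and 7.61 against 7.02, 6.99 and 7.21. It was lower by a change of -0.80 (SE 0.15, adjusted p = 0.0110), or -0.43 without background correction, and its call was also lost without hSRY-OFF replicate 1 or 2.

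Collagen III, the fibrillar collagen of distensible tissues, is encoded by Col3a1, whose probes were not called under the chosen processing. ILMN_2683958 read 9.54, 9.55 and 9.37 against 9.17, 8.24 and 8.86, a change of -0.73 (SE 0.23, limma, adjusted p = 0.0570). ILMN_1258629 read 8.51, 8.93 and 9.16 against 8.58, 7.91 and 8.26, a change of -0.62 (SE 0.23, adjusted p = 0.0834), with overlap between groups. Both estimates were at least as large as that of Col1a1, with larger standard errors. ILMN_2683958 was called lower in 6 of 9 processing alternatives, and both probes were without hSRY-ON replicate 1. With the 2 probes averaged, Col3a1 was called lower (-0.67, adjusted p = 0.0486). The remaining fibrillar genes were dim and not called, with changes of -0.22 for Col5a2, 0.08 for Col5a3 and 0.51 for Col11a2 and adjusted p from 0.223 to 0.706.

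Fibril-associated collagens bind to the surface of fibrils. Of the 9 probes of 7 such genes, 5 were tested, with 2 lower, 0 higher and a median change of -0.56. The shares over all tested probes were 13.3% lower and 13.6% higher. Col12a1, of collagen I-rich fibrils, read 9.74, 9.73 and 9.65 in hSRY-OFF and 8.86, 8.86 and 9.11 in hSRY-ON lungs. All hSRY-ON arrays were lower, with a change of -0.77 (SE 0.12, limma, adjusted p = 0.00620), and the call held in every alternative run. Col16a1 read 11.05, 10.82 and 11.09 against 10.56, 10.00 and 9.91, a change of -0.83 (SE 0.20, adjusted p = 0.0216). Its call was lost without any 1 of the hSRY-OFF arrays or hSRY-ON replicate 2. Col9a2, a chain of the cartilage collagen IX, read 6.92, 7.32 and 7.25 against 6.46, 6.44 and 6.89 without overlap and was not called (-0.56, adjusted p = 0.0538), except with 1 scaling factor per array, with detection required on all 6 arrays, without hSRY-ON replicate 3 or with probes averaged by gene. The probe values of Col9a1 (0.44, adjusted p = 0.143) and Col14a1 (-0.07, adjusted p = 0.732) were not called either.

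Within collagen IV, calls were made for Col4a3 and Col4a4. Of 9 probes of 6 genes, 8 were tested, with 3 higher, 0 lower and a median change of 0.12. Among all tested probes, 13.6% were higher and 13.3% were lower. Col4a3 and Col4a4 encode chains of the alveolar and glomerular basement membranes. Col4a4 ILMN_2679871 read 8.72, 8.62 and 8.57 in hSRY-OFF and 9.22, 9.34 and 9.38 in hSRY-ON lungs, a change of 0.68 (SE 0.11, limma, adjusted p = 0.00722) that was called in every alternative run. ILMN_2983387 of the same gene read 10.25, 10.18 and 10.11 against 10.70, 10.83 and 10.53, a change of 0.50 (SE 0.13, adjusted p = 0.0266). Col4a3 read 11.02, 11.11 and 10.86 against 11.50, 11.45 and 11.35, a change of 0.43 (SE 0.12, adjusted p = 0.0381). In all 3 probes every hSRY-ON array was above every hSRY-OFF array. The calls of Col4a3 and of the second Col4a4 probe were lost without any 1 of the hSRY-OFF arrays or hSRY-ON replicate 2. Both were also lost with the replicate block, and that of Col4a3 without hSRY-ON replicate 1 and with array weights.

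Col4a1 and Col4a2 encode the chains found in nearly all basement membranes, and neither was called. Col4a1 read 14.63, 14.62 and 14.66 against 14.51, 14.62 and 14.64, a change of -0.05 (SE 0.11, limma, adjusted p = 0.779). Col4a2 read 14.49, 14.42 and 14.60 against 14.23, 14.32 and 14.33, a change of -0.21 (SE 0.11, adjusted p = 0.208). The Col4a2 groups did not overlap, and a call was made when variances followed an intensity trend with robust fitting and in no other alternative (adjusted p = 0.0489). The sign for Col4a1 turned with 1 scaling factor per array (0.08). Col4a5, the partner of Col4a3 and Col4a4, read 10.86, 11.09 and 10.89 against 10.81, 10.63 and 10.73 (-0.22, adjusted p = 0.225). The probes of Col4a6 had changes of 0.25 and -0.01 (adjusted p = 0.203 and 0.975).

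**Figure D2:**
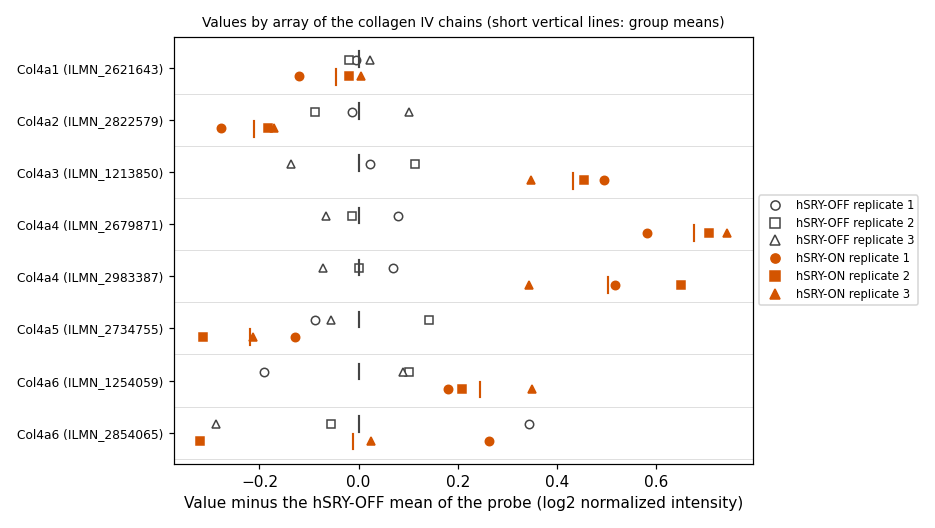
Values of the 8 tested collagen IV probes on each array, drawn as the difference from the hSRY-OFF mean of the probe on the log2 scale of normalized intensity (x axis). Open grey symbols are hSRY-OFF and filled orange symbols hSRY-ON arrays, symbol shapes give the replicate and short vertical lines the group means. The hSRY-ON symbols of Col4a3 and Col4a4 lie right of all hSRY-OFF symbols, while those of Col4a1 lie among them or at most 0.12 to the left of the mean.

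Whether chains differed in change from each other was tested within arrays for 3 pairs of probes. The log2 ratio of Col4a3 to Col4a1 was higher by 0.48 in hSRY-ON lungs, and that of Col4a3 to Col1a1 by 1.03 (-1.90 ± 0.11 in hSRY-OFF against -0.87 ± 0.33 in hSRY-ON, SD, n = 3 each). Both ratios did not overlap between groups and gave p = 0.1 in a two-sided exact permutation test (adjusted p = 0.15 over the 3 pairs), the smallest p that 3 against 3 arrays allow. The pairs were chosen with earlier results of these data known. Col4a3 and Col1a1 each separated the groups, in opposite directions. The lack of overlap of their ratio was therefore fixed by the single probes and adds no support. Col4a1 spanned only 14.51 to 14.66 over all arrays. That span is narrower than the gap in Col4a3, from 11.11 (highest hSRY-OFF value) to 11.35 (lowest hSRY-ON value). The ratio of Col4a3 to Col4a1 was thus fixed in the same way and adds no support either. The ratio of Serpinh1 to Col1a1 was -1.67 ± 0.22 (SD, n = 3) against -2.15 ± 0.37 (SD, n = 3), a difference of -0.48 with overlap (exact permutation p = 0.2, adjusted p = 0.2).

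Of the 7 pairs of collagen genes that neighbour each other in the RefSeq gene table, Col4a4 and Col4a3, which lie head to head in the genome, were the only pair with calls in both genes, both higher. Col4a1 and Col4a2 are such a pair too, and their windows, on opposite strands, share 78 bases. Neither was called. In the pair of Dcn and Lum, 1 Dcn probe was higher and Lum was not called. The pairs Col3a1 and Col5a2, Col6a2 and Col6a1, and Col4a6 and Col4a5 had no call, and Col9a1 lies beside the undetected Col19a1.

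Collagen VI, a beaded-filament collagen between fibrils and basement membranes, had 4 tested probes and no call, beside calls for 26.9% of all tested probes. Its median change was 0.11. Col6a1 ILMN_2768087 read 13.62, 13.67 and 13.62 in hSRY-OFF and 13.61, 13.62 and 13.91 in hSRY-ON lungs, a change of 0.07 (SE 0.13, limma, adjusted p = 0.694). The other Col6a1 probes changed by 0.15 and 0.23 (adjusted p = 0.356 and 0.313). Col6a2 read 11.95, 12.16 and 11.79 against 11.86, 11.66 and 12.07, a change of -0.10 (SE 0.16, adjusted p = 0.658). The groups of Col6a2 overlapped. No call was made either for Col7a1 of the anchoring fibrils (-0.03, adjusted p = 0.931) or for the multiplexins, basement membrane collagens with interrupted helices. Col15a1 gave 0.11 (adjusted p = 0.697), and Col18a1, the precursor of endostatin, gave -0.17 and 0.19 with its 2 tested probes (adjusted p = 0.383 and 0.244).

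Transmembrane collagens had 7 of 10 probes tested, with 1 higher and 1 lower, beside 13.6% higher and 13.3% lower of all tested probes. Col17a1 encodes collagen XVII of the hemidesmosomes, which anchor basal epithelial cells. Its probe ILMN_1240481 read 5.93, 6.33 and 5.64 in hSRY-OFF and 7.34, 6.93 and 6.67 in hSRY-ON lungs, a change of 1.01 (SE 0.23, limma, adjusted p = 0.0202). All hSRY-ON arrays were higher, the change was 0.37 without background correction, and the call was lost without hSRY-OFF replicate 1 or 3 or hSRY-ON replicate 2. The other probes of Col17a1 gave 0.61 and 0.43 (adjusted p = 0.0645 and 0.124), and the average of the 3 was called higher (0.68, adjusted p = 0.0296).

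Col25a1, a transmembrane collagen best known from neurons and amyloid plaques, was dim. ILMN_1237273 read 5.60, 5.59 and 6.02 against 4.60, 4.71 and 5.37, a change of -0.84 (SE 0.23, limma, adjusted p = 0.0365). It was detected on all hSRY-OFF arrays and 1 hSRY-ON array, so that its hSRY-OFF signal alone carried it past the filter. Its call was lost without background correction (-0.24), with no filter and without any single array other than hSRY-ON replicate 3. The other tested probes gave -0.44 and -0.55 (adjusted p = 0.255 and 0.204), each with overlap. Col23a1 read 9.75, 9.68 and 9.71 against 9.24, 9.37 and 9.57 with no overlap and was not called (-0.32, adjusted p = 0.0988).

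Of the chaperone and the procollagen enzymes, 5 genes each measured by 1 probe, 1 was lower and 1 was higher. Over all tested probes these shares were 13.3% and 13.6%. Serpinh1 read 11.15, 11.33 and 11.21 in hSRY-OFF and 10.40, 9.58 and 10.49 in hSRY-ON lungs. All hSRY-ON arrays were lower, replicate 2 most, with a change of -1.07 (SE 0.24, limma, adjusted p = 0.0192) or 2.11-fold. The call was lost without any 1 of the hSRY-OFF arrays. Plod1, a lysyl hydroxylase of the collagen helix, read 8.13, 8.26 and 8.28 against 8.63, 8.74 and 8.70, a change of 0.47 (SE 0.11, adjusted p = 0.0222). Its groups did not overlap, and its call was lost without any 1 of the hSRY-OFF arrays or hSRY-ON replicate 2. The Plod1 call was also lost with 1 scaling factor per array and with the replicate block. Plod2, the hydroxylase of the collagen ends, had a change of -0.34 (adjusted p = 0.169) and Plod3 of -0.10 (adjusted p = 0.548). Pcolce, which enhances removal of the C-propeptide, read 11.29, 11.43 and 11.37 against 11.01, 10.52 and 11.23. Its groups did not overlap and it was not called (-0.44, SE 0.19, adjusted p = 0.124).

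Small leucine-rich proteoglycans bind fibrils and regulate their width. Dcn probe ILMN_2747959 read 10.92, 11.01 and 11.01 in hSRY-OFF and 12.34, 11.69 and 11.84 in hSRY-ON lungs, all higher, with a change of 0.98 (SE 0.18, limma, adjusted p = 0.00977), and it was called in every alternative in which probes were kept apart. The second Dcn probe, ILMN_2596346, read 7.60, 7.95 and 8.07 against 9.25, 7.93 and 8.15, a change of 0.57 (SE 0.34, adjusted p = 0.251). Its groups overlapped, hSRY-ON replicate 1 standing above the rest, and the average of both probes was not called (0.77, adjusted p = 0.0598).

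Lumican (Lum), biglycan (Bgn) and fibromodulin (Fmod), the other members of the family measured here, were not called. Lum read 8.75, 9.10 and 9.10 against 8.23, 8.27 and 9.56, a change of -0.29 (SE 0.35, limma, adjusted p = 0.568). It was the highest of all 6 on hSRY-ON replicate 3, and without that array it was called lower (-0.73, adjusted p = 0.0185). Bgn read 14.33, 14.32 and 14.49 against 14.15, 14.22 and 14.31 (-0.15, SE 0.12, adjusted p = 0.358), and Fmod 8.72, 8.54 and 8.85 against 8.95, 8.80 and 8.82 (0.15, SE 0.13, adjusted p = 0.40). The sign for Bgn turned with 1 scaling factor per array (0.06).

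hSRY-ON replicate 3 stood nearest to the hSRY-OFF arrays in the lower transcripts. It was the highest hSRY-ON array for 9 of the 11 lower calls. The same count was not made over all lower probes of the array, so that this is not shown to be particular to the collagen genes. The median difference of the 51 tested probes from their hSRY-OFF means was -0.12 on hSRY-ON replicate 1, -0.18 on replicate 2 and 0.02 on replicate 3, and from -0.03 to 0.05 on the hSRY-OFF arrays. The number of collagen gene probes detected was 52, 49 and 49 in hSRY-OFF and 43, 44 and 48 in hSRY-ON lungs. Over all probes the numbers were 14134, 13961 and 13353 in hSRY-OFF and 13191, 13370 and 13542 in hSRY-ON lungs. Without hSRY-ON replicate 3, 8 probes were called higher and 16 lower, while 27.7% of all tested probes were called.

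**Figure D3:**
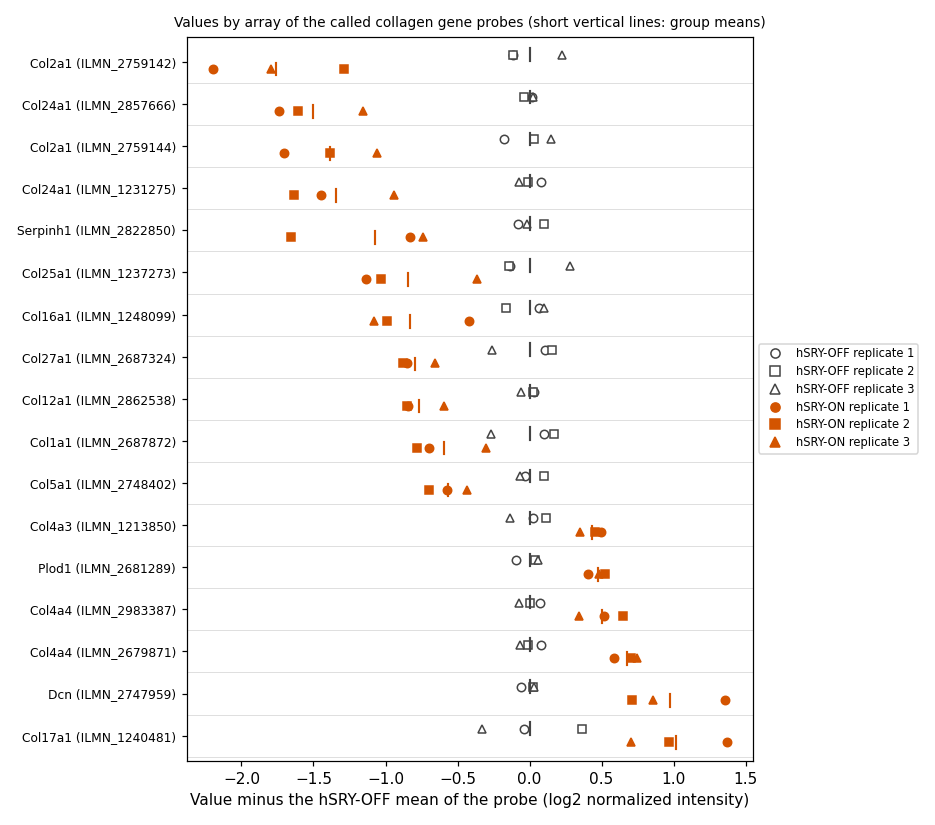
Values of the 17 called probes of the collagen genes on each array, drawn as the difference from the hSRY-OFF mean of the probe on the log2 scale of normalized intensity (x axis). Open grey symbols are hSRY-OFF and filled orange symbols hSRY-ON arrays, symbol shapes give the replicate and short vertical lines the group means. No hSRY-ON symbol falls within the hSRY-OFF values of its probe, and the hSRY-ON triangles (replicate 3) lie closest to them for 9 of the 11 lower probes.

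**Figure D4:**
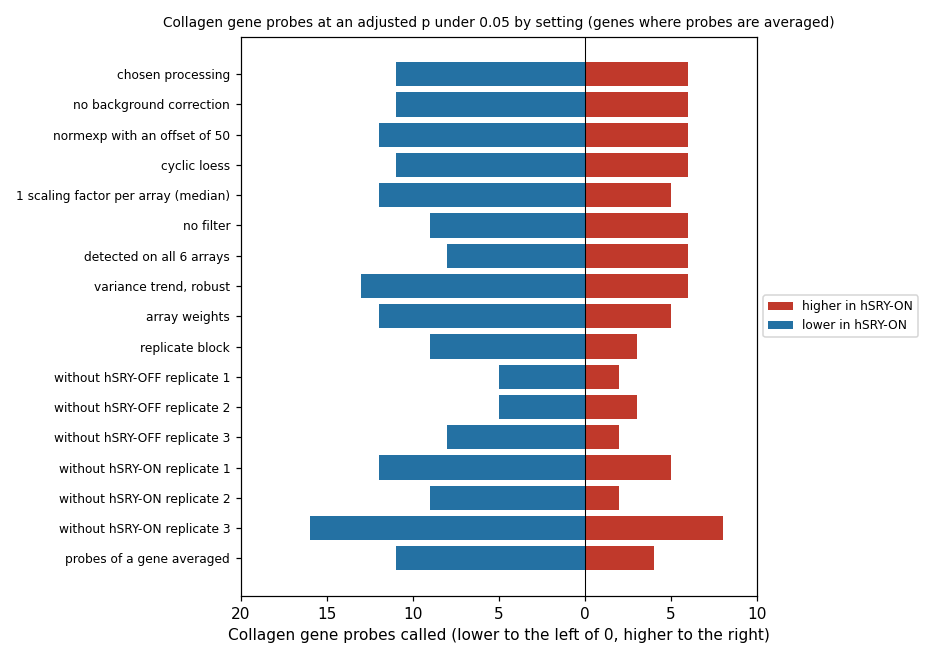
Number of collagen gene probes at an adjusted p under 0.05 (x axis, lower in hSRY-ON to the left of 0 and higher to the right) under the chosen processing and each alternative (y axis), with genes counted in place of probes in the last bar. The chosen processing gave 11 lower and 6 higher, and leaving out hSRY-OFF replicate 1 gave 5 and 2. The share of all tested probes called was 26.9% and 11.8% in these settings.

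The number of calls moved with the arrays used. Leaving out 1 array gave 2 higher and 5 lower without hSRY-OFF replicate 1, 3 and 5 without replicate 2, and 2 and 8 without replicate 3. It gave 5 and 12 without hSRY-ON replicate 1 and 2 and 9 without replicate 2. Over all tested probes the share called moved too. It was 26.9% with all arrays and 11.8%, 12.5% and 16.1% without hSRY-OFF replicates 1, 2 and 3. Without hSRY-ON replicates 1, 2 and 3 it was 32.3%, 18% and 27.7%. Of the 17 called probes, 7 were called in every alternative in which they were tested, namely Col12a1, both of Col2a1, both tested probes of Col24a1, ILMN_2679871 of Col4a4 and ILMN_2747959 of Dcn. Those of Col2a1 and Col24a1 passed the filter through their hSRY-OFF signal alone. They were not tested in the alternative that required detection on all 6 arrays.

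Beyond these members, 40 further genes of collagen synthesis, crosslinking and binding on the array had 64 probes, of which 45 were tested. Among these, 5 were higher and 11 were lower (35.6%, beside 26.9% of all tested probes, 13.6% higher and 13.3% lower). The median change was -0.29, beside -0.03 over all tested probes. With each array left out in turn and the processing unchanged, 6 of the 16 calls held throughout, namely Lox, Podn, Pcolce2, Itga1, Itga2 and Ddr2. Without hSRY-OFF replicate 1 there were 2 higher and 4 lower, without replicate 2 there were 3 and 4, and without replicate 3 there were 3 and 6. Without hSRY-ON replicate 2 the numbers were 6 and 4, and without replicate 3 they were 4 and 17. The share of all tested probes called in fits without 1 array ranged from 11.8% to 32.3%.

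Lox, the enzyme that crosslinks collagen and elastin, was higher by 1.44 on the log2 scale (limma, adjusted p = 0.00242), whereas the related Loxl1 was lower (-0.42, adjusted p = 0.0386). The Loxl1 call was lost with 1 scaling factor per array (-0.24, limma, adjusted p = 0.253) and with the replicate block. It was also lost without any single array other than hSRY-ON replicate 3. Tnxb, a fibril-binding glycoprotein, had 1 of 3 tested probes higher (0.73, adjusted p = 0.0370). That was 0.44 without background correction, and the call was lost with no filter, with array weights and with the replicate block. It was also lost without any single array other than hSRY-ON replicate 2. With 7 probes tested, the crosslinking and assembly genes had 2 higher, 1 lower and a median of 0.03. Of all tested probes, 13.6% were higher and 13.3% were lower.

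Prolyl hydroxylation and folding genes had 16 tested probes, 2 higher and 5 lower, with a median of -0.26. The shares over all tested probes were 13.6% higher and 13.3% lower. The higher ones were P4ha2, a catalytic subunit of prolyl 4-hydroxylase (0.88, limma, adjusted p = 0.0107), and the prolyl isomerase Fkbp14 (0.65, adjusted p = 0.0196). P4ha3, another catalytic subunit, was lower (-0.99, adjusted p = 0.0203, or -0.42 without background correction). The same direction was called for the prolyl 3-hydroxylase family, with changes of -0.55 for 1 of 3 probes of Lepre1, -0.47 for Leprel1 and -0.75 for Leprel2, now P3h1, P3h2 and P3h3. Crtap, a further gene of this list, had 1 of its 2 probes called, at -0.59, and these 4 adjusted p ranged from 0.0295 to 0.0416. The Leprel1 call was lost without background correction (-0.24), with cyclic loess and with the variance trend, those of Lepre1 and Crtap with 1 scaling factor per array, and that of Crtap also with no filter. Each of the 4 lost its call with the replicate block and was called in 1 of the 6 fits that left out an array.

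Among propeptide cleavage genes, 1 of 9 tested probes was called, Pcolce2 (-0.67, limma, adjusted p = 0.00959), with a median of -0.46. That is 11.1%, beside 26.9% of all tested probes. Podn, a further small leucine-rich proteoglycan, was higher by 1.19 (adjusted p = 0.00448), the call made among 3 tested probes. Receptors and uptake genes had 10 tested probes, 4 lower and 0 higher, with a median of -0.58. Among all tested probes, 13.3% were lower and 13.6% were higher. Among the chains of collagen-binding integrins, Itga1 and Itga2 changed by -1.65 (adjusted p = 0.00188) and -1.34 (adjusted p = 0.00320), the latter by -0.44 without background correction. Neither tested probe of Itga11 was called (0.04 and -0.07, adjusted p = 0.861 and 0.726), nor was either of Itgb1, the shared β1 chain (0.22 and -0.58, adjusted p = 0.245 and 0.0531). The collagen uptake receptor Mrc2 gave -0.81 (adjusted p = 0.0293) in 1 of 2 probes, or -0.41 without background correction. Ddr2, a receptor kinase for fibrillar collagen, was detected on all hSRY-OFF and no hSRY-ON arrays, so that its hSRY-OFF signal alone carried it past the filter. The limma estimate for Ddr2 was -0.69 (adjusted p = 0.00833), and under the chosen processing the fall was at least 1.12-fold, a bound that was not itself tested. Its call was lost without background correction.

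**Figure D5:**
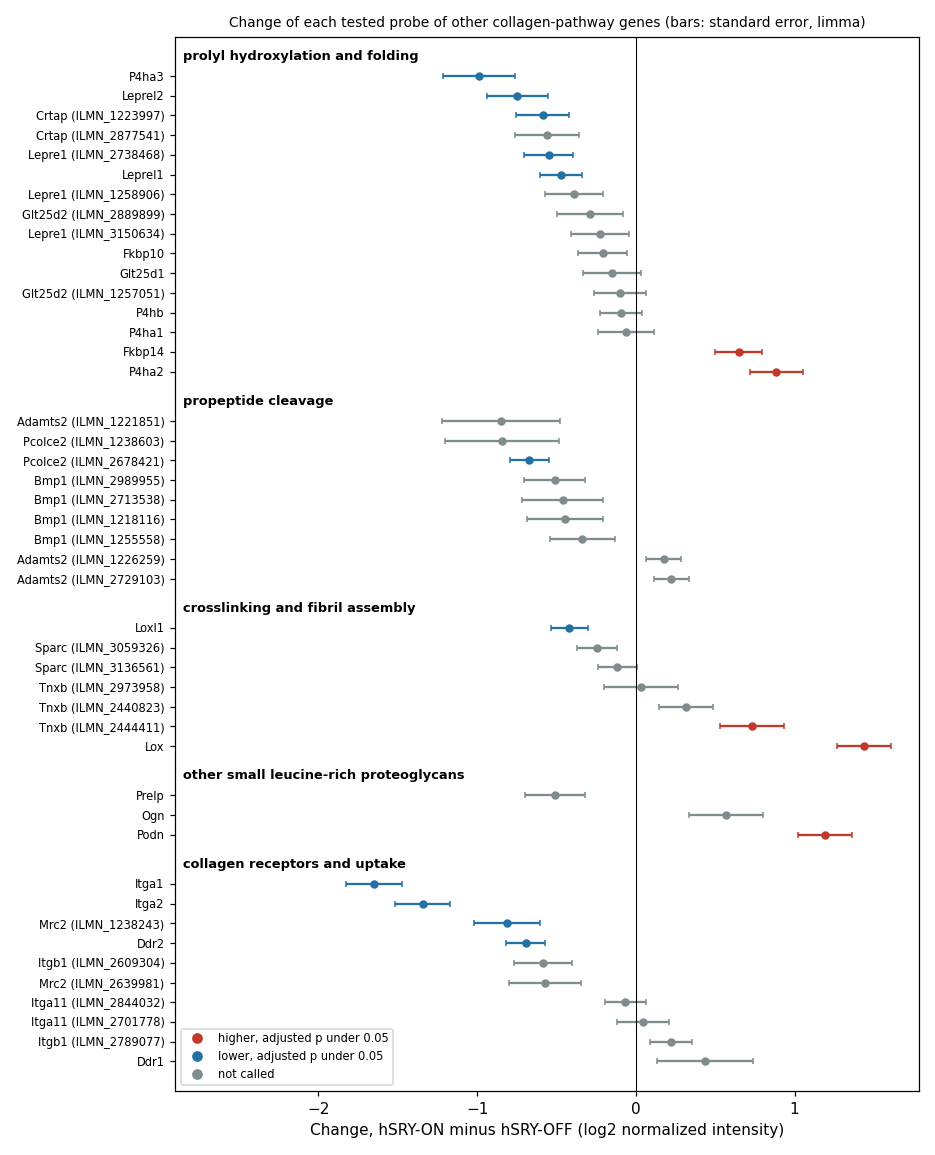
Change of each of the 45 tested probes of the other collagen pathway genes by group, as hSRY-ON minus hSRY-OFF on the log2 scale of normalized intensity (x axis). Points are limma estimates from 3 against 3 arrays, bars are standard errors, and colours give the call at an adjusted p under 0.05. Lox lies farthest right, at 1.44, and Itga1 farthest left, at -1.65.

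Markers of the cell types of the lung were set beside these values. Of all tested probes, 13.6% were higher and 13.3% were lower. Of 8 lung mesenchyme markers 7 were tested and 5 were lower, namely Wnt2 (-2.18), Meox2 (-1.65), Foxf1a (-1.21), Tbx4 (-0.85) and Pdgfrb (-0.77, limma, adjusted p from 0.00490 to 0.0389), while Tcf21 (0.23) and Pdgfra (0.19) were not called and Gli1 was undetected. Their summed linear level was 20400 to 23600 in hSRY-OFF and 17800 to 21400 in hSRY-ON lungs, with overlap. For smooth muscle, 5 of 7 tested probes were lower and 0 were higher, the sums were 31700 to 34300 and 15800 to 23800, and Cnn1 was undetected. Endothelial markers had 3 of 6 tested probes lower, with sums of 34200 to 36900 and 23700 to 24700 and Kdr undetected. All 7 tested proliferation probes were lower (5660 to 7050 against 1680 to 3620). Epithelial markers had 2 of 9 probes higher and 0 lower, with sums of 77900 to 82500 and 79400 to 87300. Cardiac muscle markers had 1 of 6 lower (Myl4, -1.94), a median change of -0.01 and sums of 6160 to 8060 and 2090 to 3400. These sums mostly follow Myl4, by far the brightest of them. Actc1 (0.30 and 0.26), Myh6 (0.08), Tnni3 (-0.11) and Myl7 (-0.99) were not called. Of the 23 called marker probes, 11 stayed called with each array left out in turn. The part of these cells in the collagen changes was not tested.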

How the data were processed

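Total RNA of 6 lungs was hybridised to Illumina MouseRef-8 arrays. The authors deposited, for each probe and array, a linear intensity that was not normalized and a detection p-value. Their own normalized values and the paper's supplementary values were not used, and 0 columns of sample values were left out. The software that summarised the beads is not given in the sources used here. The study analysed its arrays with TCC, a count method, while the submitters' processing notes name limma. Since the values are intensities, limma 3.58.1 in R 4.3.3 was used. The normexp background was fitted by way of the detection p-values, with an offset of 16 and then quantile normalization and log2, which compresses changes of dim probes and removes any overall shift. Probes detected (p under 0.05) on at least 3 of 6 arrays were kept, 53.9% of all. Groups and replicates came from the labels. lmFit and eBayes were run without covariates, with Benjamini-Hochberg adjustment across the kept probes and 0.05 as threshold. The script was tested on simulated data. No 2 arrays held identical values.

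Probes were kept apart. The array's symbols were matched to current names through a RefSeq gene table (GRCm38.p6). Values per array were given, for each called gene, for the probe with the lowest p, and for Col1a1, Col1a2, Col3a1, Col4a1 to Col4a4, Col6a1, Col6a2, Serpinh1, Pcolce, Lum, Dcn, Bgn and Fmod whatever their result. Called genes of the pathway lists were named with their change, and values for further members were added. The members, lists and tests were chosen with earlier results of these data known. Alternatives changed the background correction, the normalization, the filter, the variance model, array weights, a replicate block, the averaging of probes and each array in turn. Those for the pathway genes were added after seeing the data.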

Additional observations from a re-analysis of the deposited data

How the results depend on the processing

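Of the 17 called collagen gene probes, 11 stayed called under every processing alternative in which they were tested and 7 also without each array in turn. Across the processing alternatives other than the replicate block, 5 to 6 probes were called higher and 8 to 13 lower, or 4 and 11 genes with probes averaged. The median change stayed between -0.17 and -0.07 in all alternatives. Leaving out 1 array gave 2 to 8 higher and 5 to 16 lower among the collagen genes and 2 to 6 higher and 4 to 17 lower among the pathway genes. Of all tested probes, 11.8% to 32.3% were then called. Whether the replicate numbers pair the arrays was not settled. The deviations of same-numbered arrays correlated at -0.11, 0.10 and -0.09, and not every array correlated best with its own number. With 3 arrays per group, such correlations cannot exclude pairing. With the replicate block, 3 collagen gene probes were higher and 9 lower, beside 3 higher and 5 lower among the pathway genes. The block left 19.2% of all tested probes called, beside 26.9% under the chosen processing. The direction turned only for probes that were not called. With 1 scaling factor per array the changes were 0.0613 for Bgn, -0.0876 for Col1a2 and 0.0831 for Col4a1, with array weights -0.0038 for Col1a2, and with cyclic loess 0.0147 for Col4a6 (ILMN_2854065) and 0.0012 for Col7a1. Leaving out 1 array spanned 0 for Col14a1 (-0.14 to 0.039), Col15a1 (-0.0888 to 0.22), Col1a2 (-0.17 to 0.11), Col4a6 ILMN_2854065 (-0.15 to 0.16), Col5a2 (-0.61 to 0.051), Col5a3 (-0.0002 to 0.19), Col6a1 ILMN_2768087 (-0.0249 to 0.12) and Col7a1 (-0.23 to 0.16). The cause of these turns was not tested. Dim probes give changes that depend on the background correction, and a gene without a tested probe has no measured change here.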

Other observations

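The array names 2 further collagen genes by older symbols, which the naming rule of the collagen genes did not take in. Emid2, a synonym of Col26a1 in the RefSeq gene table, read 5.81, 5.64 and 5.82 in hSRY-OFF and 7.41, 6.62 and 8.10 in hSRY-ON lungs. All hSRY-ON arrays were higher, with a change of 1.62 (SE 0.34, limma, adjusted p = 0.0147), or 0.65 without background correction. The call was lost without hSRY-OFF replicate 1 or 2. E330026B02Rik, a synonym of Col6a6, was not detected on any array.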
